A study of Mus musculus with 13 samples.

Results

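The myeloid fraction of a mixed-phenotype acute leukaemia (M-MPAL) was set against an empty control, variant by variant. A member was an M-MPAL SNV or INDEL on chromosomes 1 to 19 that the control library did not show at any depth. It also had 10 or more reads, a call quality (a Phred-scaled score) of 100 or higher and no annotated segmental duplication. The alternative allele needed 4 or more reads and 0.2 or more of the depth. All M-MPAL copy number calls on these chromosomes were members too. This gave 8852 members, namely 2500 SNVs, 6045 INDELs and 307 copy number calls, of 518118 distinct variants and copy number calls in the series.

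The study sequenced the genomes of leukaemias that arose in mice given retroviral N-Myc. Both groups were GFP+ bone marrow cells of C57BL/6 mice, labelled 8-10 weeks, with 1 library each. M-MPAL cells were sorted as GFP+Mac1/Gr1+B220-CD3/4/8-, while the control cells were sorted as GFP+ alone and carry the label Empty control. Sequencing aimed at 30x with paired reads of 150 bases from 350 bp fragments, as the labels' protocols state. The other libraries are T-MPAL (the CD3/4/8 positive fraction of MPAL), AML, B-ALL, T-ALL and AUL. The labels name no normal DNA of the same mouse, so inherited and acquired variants cannot be told apart. They do not say whether both MPAL fractions came from the same mouse, or how many mice gave the cells. Neither do they name the promoter of the retroviral transgene. With 1 library per group there is no replicate check, and no test between the groups was made. Intervals are exact 95% intervals (Poisson for counts, Clopper-Pearson for shares, order statistics for medians) and cover counting error only.

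Mixed-phenotype acute leukaemia carries markers of more than one blood lineage in the same disease. Mac1 is the integrin made of the products of Itgam and Itgb2, and antibodies against Gr1 bind Ly6g and Ly6c on granulocytes and monocytes. A somatic change present in all cells of a clone on 1 of 2 copies of a chromosome should be on about as many reads as the reference base, and rearranged antigen receptor loci mark lymphocytes in DNA. N-Myc, encoded by Mycn, is a transcription factor of the Myc family that drives growth and division.

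Of the 7 member SNVs that lay in a promoter window (250 bases before to 50 after a RefSeq gene start, 32851 windows), 3 were held by M-MPAL alone or by both MPAL fractions and no other library. They are shown because they sit where transcription starts, on the gene's own strand, from RefSeq promoters of build GRCm38.p6, with the changed base in capitals and the reference line above the M-MPAL line.
Cbfa2t3 reference: ggcgccgggcgcacGgaaccgggcctctc
Cbfa2t3 M-MPAL: ggcgccgggcgcacAgaaccgggcctctc
Ldlrad3 reference: aaaactggatccgcCggacctttgtaacc
Ldlrad3 M-MPAL: aaaactggatccgcGggacctttgtaacc
Mkrn3 reference: ggtgggaagacaaaAatcgatgcacttcg
Mkrn3 M-MPAL: ggtgggaagacaaaGatcgatgcacttcg
Cbfa2t3 encodes a transcriptional corepressor of blood progenitors (Eto2). Its change, at -133 from the start (chr8:122678294-122678322, minus strand), was on 11 of 21 reads in M-MPAL and was also called in T-MPAL alone. It removes the G of a CG dinucleotide, the sequence that DNA methylation marks. Ldlrad3, a low-density lipoprotein receptor relative, had its change at -68 (chr2:102186514-102186542, minus strand) on 10 of 25 reads, again with T-MPAL alone. Mkrn3, an imprinted ubiquitin ligase gene, had its change at -4 (chr7:62420143-62420171, minus strand) on 9 of 23 reads and in no other library. The shares were 52.4%, 40.0% and 39.1%, and all 3 intervals included 50%. The other 4 promoter SNVs were 3 in Mroh2a and 1 in Gm10516. The same rule run in the other direction found 2 in the control, in Cd84 and Nt5dc3. Promoter windows thus held 7 of 2500 member SNVs and 2 of 746 control SNVs, and no excess in M-MPAL is read from these counts. The reference base of the window matched the deposited one at 9 of these 9 SNVs.

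M-MPAL carried more SNVs that the control lacked than the control carried against M-MPAL. Of 9761 M-MPAL SNVs that passed the filters, 2500 (25.6%; count interval 2403 to 2600) had no control call. Of 7777 control SNVs that passed, 746 (9.59%; 693 to 802) had no M-MPAL call. The first set was 3.35 times the size of the second, and the ratio lay between 1.69 and 6.40 over the 13 other settings tried. Read depth was close but not equal: at the 7797 SNVs called in all 7 libraries outside segmental duplications, the median was 29 reads in M-MPAL and 26 in the control. Its part in the result was not tested. The same rule gave 1932 SNVs for T-MPAL, 1700 for AML, 1653 for B-ALL, 2348 for T-ALL and 5249 for AUL. These counts share the 1 control library and are given side by side only.

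INDELs separated M-MPAL from the control far less. Of 13083 M-MPAL INDELs that passed, 6045 (46.2%) had no control call, and of 11787 control INDELs 4710 (40.0%) had no M-MPAL call. This order turned round with 2 settings: at a minimum of 20 reads M-MPAL had 1894 and the control 2101, and with every deposited quality M-MPAL had 40823 and the control 45201. Simple repeats, which are prone to length errors, held 84.5% of the member INDELs and 87.2% of the control ones. Outside all repeats 186 member INDELs remained, against 72 in the control.

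The limits of the rule cut through dense parts of the SNV data. In the band of 10 quality units above the minimum lay 155 member SNVs, and 147 SNVs without a control call lay in the band below it. At exactly 10 reads there were 43 members, and at 9 reads 54 SNVs were left out. At the read share limit only 5 lay just inside and 6 just outside, within 0.02 of it. The quality limit by itself left out 1876 SNVs.

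The member SNVs and the control set also differed in which other libraries held them. No other library held 1235 of the member SNVs (49.4%), T-MPAL alone held 528, and all 5 other leukaemias held 312. In the control set 193 (25.9%) were in no other library, 6 were in T-MPAL alone and 144 in all 5. T-MPAL held 1149 member SNVs (46.0%, 44.0 to 47.9), while AML, B-ALL, T-ALL and AUL each held between 21.0% and 22.8%. For the control set the order was the other way round: T-MPAL held 35.4% (32.0 to 38.9) and the other 4 between 49.7% and 53.5%. INDELs kept the order with a smaller gap, since T-MPAL held 34.7% of the member INDELs and the other 4 between 23.4% and 25.1%.

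**Figure D1:**
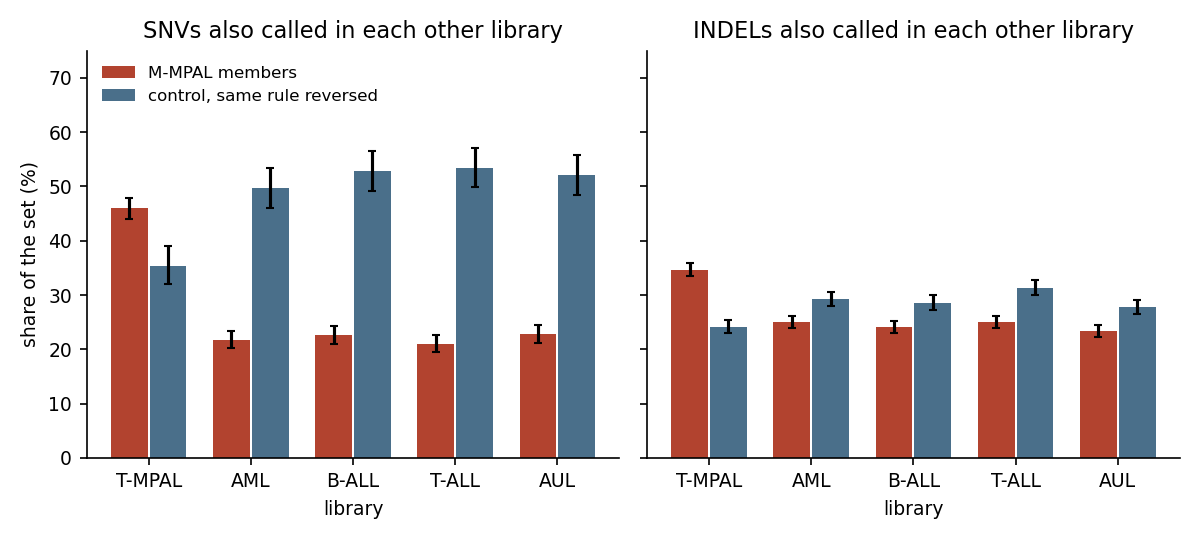
Share of the M-MPAL members (red) and of the control calls absent from M-MPAL (blue) that each other library also held, for SNVs (left) and INDELs (right), with exact 95% intervals. T-MPAL held 46.0% of the member SNVs, and each of the other 4 libraries held 21.0% to 22.8%.

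The read shares of these groups differed. Member SNVs in no other library had a median alternative read share of 0.44 (middle range 0.368 to 0.522) at a median depth of 24 reads, and those shared with T-MPAL alone had 0.50. Control SNVs in no other library had 0.325 (0.282 to 0.40) at 28 reads. Member SNVs in all 5 other leukaemias had 0.730, and 77.2% of them were listed in dbSNP, the catalogue of known variants. In no other library 8.58% were listed, and with T-MPAL alone 14.4%. Thus 43.6% of the members in all 5 other leukaemias were called homozygous, against 1.46% of the members in no other library.

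**Figure D2:**
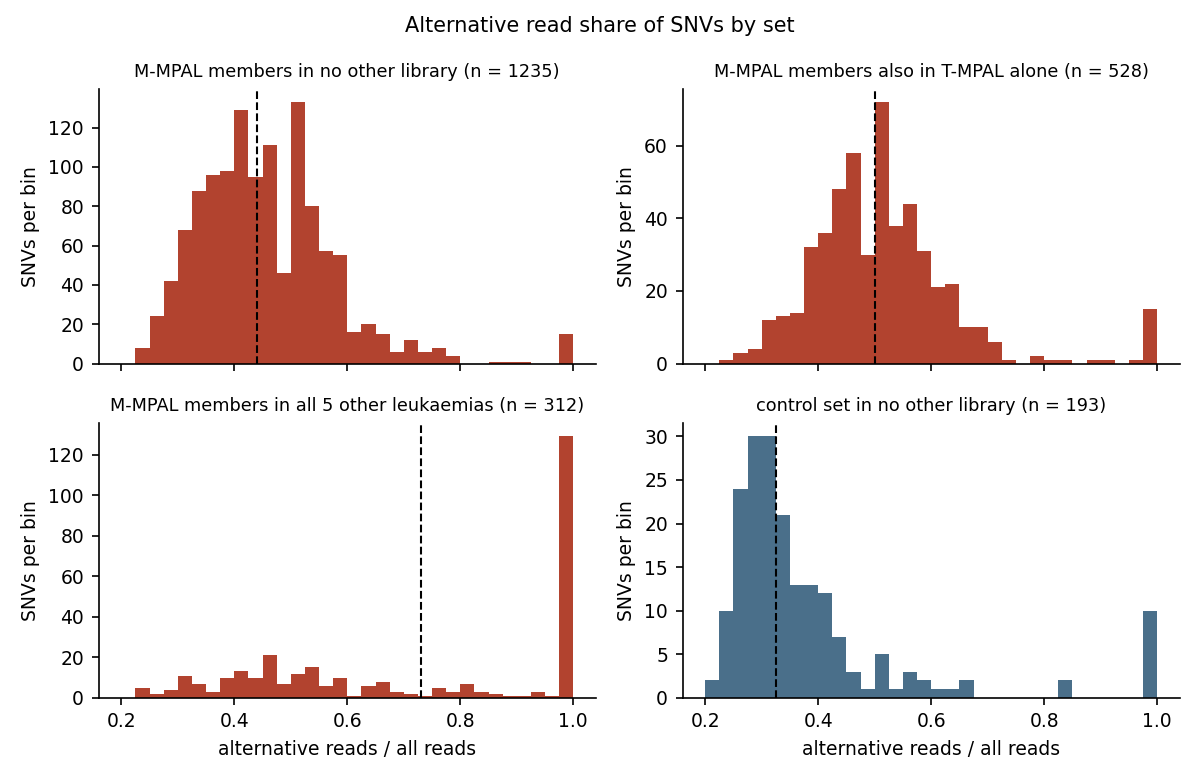
Histograms of the alternative read share (alternative reads over all reads, horizontal axis) of member SNVs in no other library, in T-MPAL alone and in all 5 other leukaemias (red), and of control SNVs in no other library (blue). Dashed lines mark the medians of 0.44, 0.50, 0.730 and 0.325, and the panels have separate vertical axes.

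C>T changes, which include the deamination of methylated cytosine, were the largest class of member SNVs. They made up 42.3% (40.4 to 44.3) of all members and 35.4% (32.0 to 38.9) of the control set. Among SNVs in no other library the shares were close, at 45.3% (42.5 to 48.1) for M-MPAL and 44.6% (37.4 to 51.9) for the control. Other classes differed there: T>C changes made up 20.2% (18 to 22.5) in M-MPAL and 11.4% (7.28 to 16.7) in the control. C>A changes made up 11.2% (9.47 to 13.1) in M-MPAL and 20.7% (15.2 to 27.1) in the control. C>G changes made up 3.40% (2.46 to 4.57) in M-MPAL and 8.29% (4.81 to 13.1) in the control. For T>C, C>A and C>G the pairs of intervals did not overlap. With T-MPAL alone the members had 45.8% C>T, while in all 5 other leukaemias they had 29.5%.

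Most member SNVs lay outside genes or in introns, with 1539 (61.6%) intergenic, 793 (31.7%) intronic and 36 (1.44%) exonic. The exonic share of the control set was 1.47%. Members were not spread evenly. A stretch of chromosome 1 with the glucuronosyltransferase gene Ugt1a1, Mroh2a and the centromere factor gene Hjurp (chr1:88212637-88323678) held 102 member SNVs at a median depth of 114.5 reads. Only 6 of these were in no other library, and 92 were in dbSNP. The control set was dense here too, with 48 of its 746 SNVs in the same 1 Mb window, against 102 of 2500 members. From Ugt1a1 to Hjurp copies were called at 11 to 13 in M-MPAL and at 12 in the control. A second stretch, which includes Mucl1, lay at the end of chromosome 15 (chr15:103651494-103910942), with 46 member SNVs, of which 39 were in dbSNP and none was private to M-MPAL. The control set had 0 SNVs in that 1 Mb window. Mucl1 itself was called at 3 copies in M-MPAL, the control, AML, B-ALL and T-ALL, and at 4 in T-MPAL. M-MPAL had 0 SNV calls inside this gene. Without the regions called at gain in the control, 2310 member SNVs remained.

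Protein-altering members numbered 21 (13.0 to 32.1), against 9 (4.12 to 17.1) in the control set. As shares of the SNVs in each set, M-MPAL was not higher for most of these. Missense changes were 17 of 2500 member SNVs (0.68%) and 7 of 746 control SNVs (0.938%). Stop-gaining changes were 0.08% and 0.134%, and splice-region changes 0.08% and 0. All 21 were SNVs: 17 missense, 2 stop-gaining and 2 near splice sites. In no other library were 9 of them, 7 were in T-MPAL alone and 5 in 3 or 4 other libraries. No member INDEL was annotated as protein-altering, and the control set had 1, an in-frame insertion in Rsf1 on 31 of 31 reads. Besides these, 14 member SNVs were synonymous. The files give no depth where a variant was not called. The control call nearest to a protein-altering member outside the chromosome 1 stretch was between 1475 bases (Ttc16) and 76786 bases (Vmn2r109) away, so control depth at these sites is not known from the files.

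Genes that act on chromatin held the private change with the most alternative reads and 1 of the 2 stop codons. Smarca4 encodes the ATPase that drives the SWI/SNF nucleosome remodeller. M-MPAL had the missense change E535K in its exon 10 (chromosome 9, position 21642434) on 25 of 53 reads (47.2%, 33.3 to 61.4), and no other library had that call. AML had a different missense change in the same gene, D1225H, on 13 of 28 reads, and the other 5 libraries had no protein-altering call in Smarca4. Setd2 encodes the methyltransferase that places the trimethyl mark on lysine 36 of histone H3. Its stop codon Q1643X in exon 8 (chromosome 9, position 110564658) was on 10 of 33 reads (30.3%, 15.6 to 48.7), an interval that ends below 50%. Smarca4 stayed a member under all 13 other settings and Setd2 under 12, being left out at a quality minimum of 200. Hmgb2, a chromatin protein that bends DNA, had P175S on 15 of 31 reads in M-MPAL. T-MPAL (13 of 26), AML (12 of 28) and B-ALL (5 of 22) had it too.

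Several other members lay in genes of membrane proteins. Abcd2, which carries very long chain fatty acids into peroxisomes, lies on chromosome 15 and had A83T in exon 1 on 17 of 50 reads (34.0%, 21.2 to 48.8). T-MPAL had another missense change in Abcd2, A54V, on 6 of 36 reads with a quality of 48.4. Slc12a5, the potassium chloride cotransporter KCC2 of neurons, had A350S on 9 of 29 reads (31.0%). Lepr, the leptin receptor of the cytokine receptor family, had the stop codon G818X in exon 16 on 7 of 21 reads (33.3%, 14.6 to 57.0). Crim1, a membrane protein that binds bone morphogenetic proteins, had L553P on 8 of 26 reads. No protein-altering call in these 4 genes was found in the control at any depth. Csmd1, a large membrane protein that inhibits complement, had 2 missense members shared with T-MPAL alone: D742Y on 16 of 27 reads and P3183S on 7 of 16, with 10 of 21 and 9 of 22 in T-MPAL.

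RNA and cell structure genes followed. Stau1, a double-stranded RNA binding protein of RNA transport and decay, had a change in the splice region of exon 3 on 11 of 28 reads (39.3%, 21.5 to 59.4). Arhgap42, a GTPase-activating protein, had one at exon 18 on 11 of 19 reads (57.9%). Both lay 3 or 4 bases into the intron, outside the invariant first bases of the splice donor. Ttc16, a tetratricopeptide repeat gene, had D792N on 12 of 27 reads. All 3 were in no other library.

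Besides the 2 changes in Csmd1, 5 were shared with T-MPAL alone. Pdhx, a binding protein of the pyruvate dehydrogenase complex, had G226D on 14 of 26 M-MPAL reads and 8 of 14 T-MPAL reads. Ttpa, the transfer protein of vitamin E, had R32K on 13 of 24 and 15 of 28. Neu3, a sialidase of the plasma membrane, had R125H on 10 of 21 and 10 of 16. Atg5, which is needed to build autophagosomes, had S106R on 7 of 19 reads (36.8%, 16.3 to 61.6) and 8 of 21. The last of these was I628T in the pheromone receptor gene Vmn2r109, on 15 of 26 and 22 of 28. In each of these 5 genes the 95% interval of the M-MPAL share included 50%.

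The remaining named members were held by several leukaemias. Gcsam, a signalling protein of germinal centre B cells, had D147N on 12 of 28 M-MPAL reads, and on 20 of 30 for T-MPAL, 23 of 40 for AML and 16 of 31 for B-ALL. Cmya5, a muscle protein, had A1665T on 16 of 25 reads, with T-MPAL, T-ALL and AUL also carrying it. Ugt1a1 Y232F (57 of 167 reads) and Mroh2a S750L (48 of 118) came from the repeated stretch of chromosome 1. Outside the gene families left out of the choice, the best supported control genes were Hjurp (R10W, 53 of 104 reads), Rsf1 and Prr30 (K387N, 11 of 42). Cyp2b10 (A87D, 10 of 44) and Eya2 (A11T, 9 of 33) came next. Zfp24, of a family left out, had P334T on 16 of 43 control reads, more alternative reads than Prr30.

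**Figure D3:**
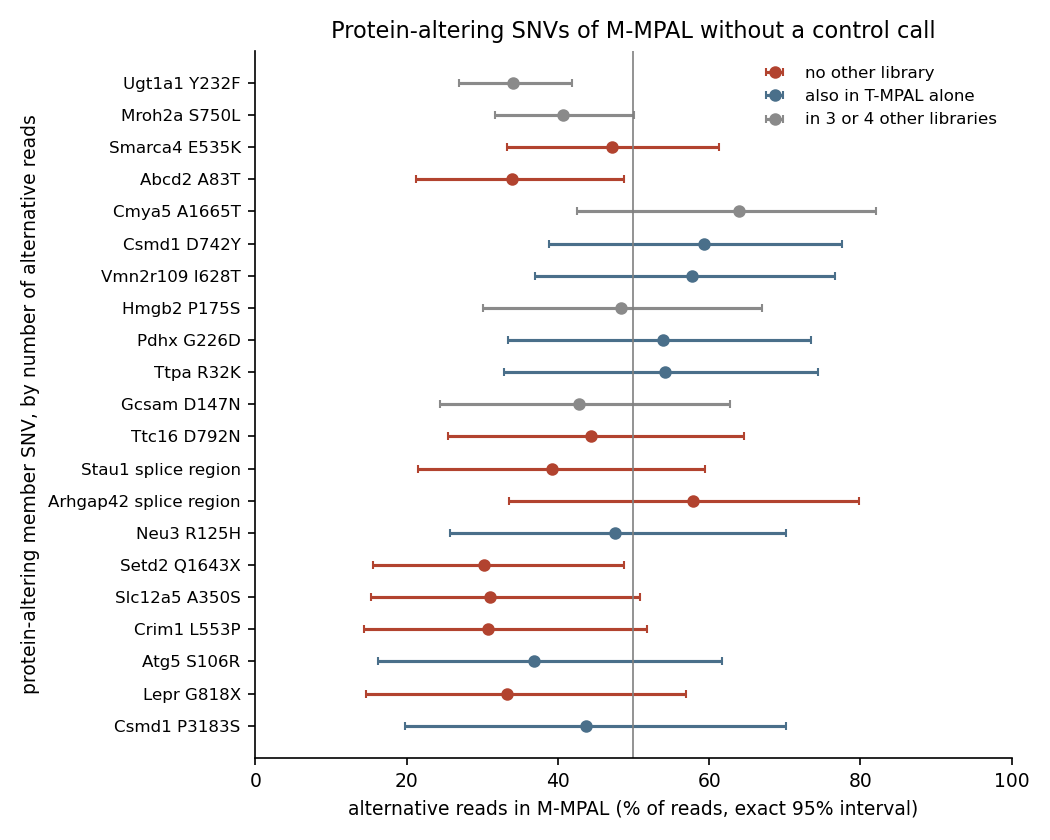
Alternative reads as a percent of all M-MPAL reads at each of the 21 protein-altering members, with exact 95% intervals, ordered by the number of alternative reads. Smarca4 E535K stood at 47.2%. The intervals of Ugt1a1 Y232F (27.0 to 41.9), Setd2 Q1643X (15.6 to 48.7) and Abcd2 A83T (21.2 to 48.8) ended below 50%.

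Protein-altering calls that the rule left out numbered 80, of which 40 lay in segmental duplications. Rrs1, a ribosome assembly gene, had A164S on 17 of 49 reads and D165N on 17 of 48, with qualities of 72 and 75. Both were also called in T-MPAL, B-ALL and T-ALL, so of its calls only the frameshift A194fs (17 of 48) was in M-MPAL alone. Rrs1 lay in a gain of 10 kb to 3 copies (chromosome 1, 9545001 to 9555000) that no other complete table had. It was chosen after its values were seen. Kmt2d, a histone methyltransferase gene of chromosome 15, had an in-frame deletion on 5 of 33 reads.

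At Mycn, the gene whose product was overexpressed, M-MPAL had 3 synonymous exon SNV calls, all listed in dbSNP. Reads of the chromosomal gene and of the integrated retroviral N-Myc cannot be told apart in these calls. R124R (chromosome 12, position 12940022) had 13 of 39 reads, and in T-MPAL 28 of 60. Q390Q (position 12937225) was on 8 of 37 and 28 of 57, and G307G (position 12937474) on 8 of 33 and 12 of 33. The control and the other 4 libraries had none of the 3. The share was lower in M-MPAL than in T-MPAL at each, but the intervals overlapped at all 3 sites (19.1 to 50.2 against 33.7 to 60.0 at R124R). Only R124R passed the quality limit, and no copy number call touched Mycn.

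Among the leukaemia gene lists, hits were few. Of 193 list genes found on these chromosomes, 10 (5.18%) held a member SNV in an exon, intron or UTR, against 602 of 20665 protein-coding genes (2.91%). For the control set it was 2 of 193 (1.04%) against 0.895% of all genes. A member INDEL lay in 19 list genes (9.84%), against 7.18% of all genes. A control INDEL lay in more of them, 23 (11.9%), against 7.21% of all genes. Protein-altering members hit 2 list genes, Smarca4 and Setd2, and 20 genes in all. The SWI/SNF list had 3 of 17 genes with a member SNV: Smarca4, Arid1b (intronic, 13 of 23 reads) and Smarcd3 (intronic, 7 of 19). In the control set it had 1 of 17, Smarcc1. Intronic SNVs shared with T-MPAL alone lay in the T-cell coreceptor gene Cd8b1 (20 of 31 reads), the B-cell factor gene Ebf1 (12 of 24) and the methyltransferase gene Kmt2c (11 of 28). Dnm2 and Ep300 had intronic SNVs that further leukaemias also held. No member SNV lay in the 18 myeloid marker and regulator genes, the 23 AML genes or the 30 DNA repair genes. The same held for the 25 genes of cytokine receptors, JAK-STAT and RAS. At the 2.91% share over all genes, lists of this size can hold none, so nothing is read from these zeros.

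Chromosome 15 was the one chromosome called at gain over its length. M-MPAL had 157 gain calls there that covered 99.6 Mb, or 98.9% of the stretch from 3170001 to 103895000, and 155 of them stood at 3 copies. Of 776 protein-coding genes on the chromosome, 772 (99.5%) lay in these calls. Among the list genes this placed at 3 copies the Gr1 genes Ly6g, Ly6c1 and Ly6c2, the cytokine receptor genes Csf2rb and Il7r, and Myc, the closest relative of N-Myc. It also covered the chromatin genes Kmt2d, Arid2, Smarcd1 and Ep300, the cohesin gene Rad21 and the DNA repair gene Xrcc6. The control had 0.232 Mb at gain on chromosome 15. The gain was not particular to M-MPAL, since T-MPAL had 204 gain calls there that covered 101 Mb, 197 of them at 3 copies.

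Read depth at called variants, from the same libraries as the copy number calls, showed the same chromosome. At 8015 SNVs called in both libraries, the M-MPAL depth over the control depth on chromosome 15 was 1.56 times (1.51 to 1.64, 508 sites) that of all autosomes. The other 18 chromosomes lay between 0.90 and 1.15. The size of the ratio depended on the sites: INDELs gave 1.37 (1.33 to 1.42, 959 sites) with the others between 0.969 and 1.04. SNVs outside the control's gain regions gave 1.42 (1.37 to 1.5), and SNVs outside repeats gave 1.91. Along the chromosome the INDEL ratio was even, at 1.36, 1.37, 1.36 and 1.37 in 4 equal parts from start to end. AML had only 0.158 Mb of chromosome 15 called at gain. Its SNV ratio over the same control was 1.17 (1.13 to 1.21) there, and its INDEL ratio 1.05 (1 to 1.07). How far this offset enters the M-MPAL ratios was not tested.

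**Figure D4:**
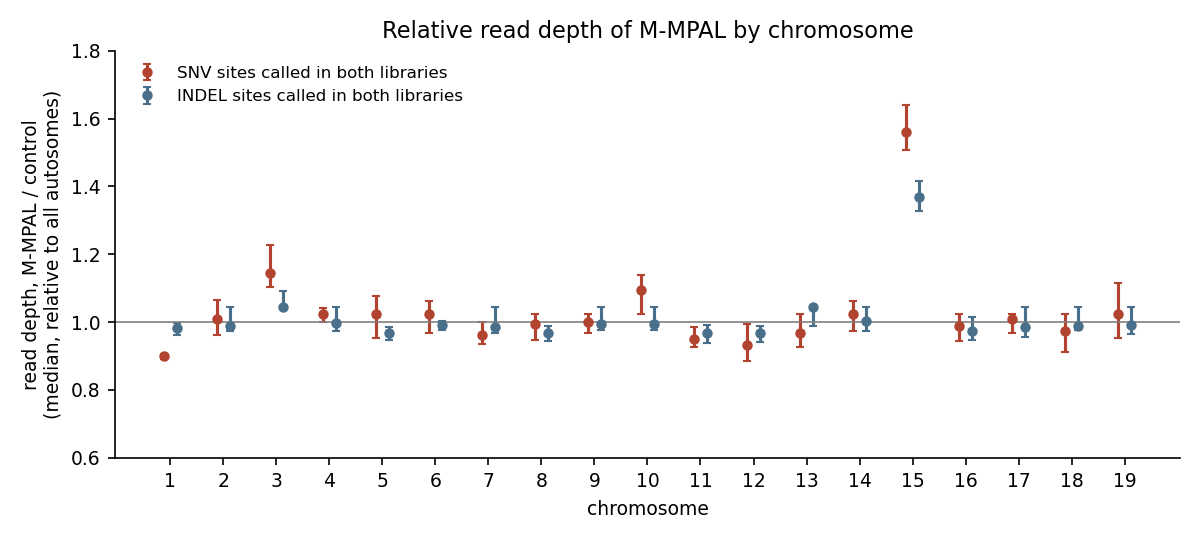
Median read depth of M-MPAL over the control at SNVs (red) and INDELs (blue) called in both libraries, for each of chromosomes 1 to 19, relative to all autosomes, with 95% order-statistic intervals. Chromosome 15 stood at 1.56 and 1.37, and no other chromosome was above 1.15.

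Member SNVs on chromosome 15 in no other library had lower read shares than those on the other autosomes. A variant on 1 of 3 copies is expected on fewer reads than one on 1 of 2, so shares were sorted at 0.417 and 0.583, midway between the values for 1 of 3, 1 of 2 and 2 of 3 copies. Of 53 members on chromosome 15 in no other library, 36 (67.9%, 53.7 to 80.1) lay below the lower limit, 8 between and 9 above. On the other autosomes 478 of 1182 (40.4%, 37.6 to 43.3) lay below, 576 between and 128 above. The medians were 0.341 (0.303 to 0.412) and 0.444 (0.435 to 0.450), with median depths of 32 and 24 reads. The intronic SNVs in Trps1 (9 of 30 reads) and Grhl2 (12 of 42) and the 3' UTR SNV in Tnrc6b (9 of 35) are examples from the lower group, chosen after their values were seen.

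Members of chromosome 15 that T-MPAL also held often had opposite shares in the 2 fractions, both of which had this chromosome called at gain. At 17 of 22 such SNVs one fraction was above 0.5 and the other below, against 202 of 506 on the other autosomes. In the intron of the kinase gene Stk3, 16 of 42 M-MPAL reads and 31 of 41 T-MPAL reads had the change. In the intron of the adhesion gene Cntn1 29 of 42 and 11 of 41 did. Ptp4a3, a phosphatase gene, had a 5' UTR SNV on 24 of 46 and 8 of 30. Oxr1, an oxidation resistance gene, had 20 of 33 and 9 of 36. Dmc1, a recombinase gene of meiosis, had 11 of 38 and 21 of 31. So neither fraction was the higher one at all these chromosome 15 sites. The other autosomes were not all alike. On chromosomes 18 (14 SNVs) and 19 (6 SNVs) the median M-MPAL shares were 0.524 and 0.532. Most T-MPAL shares on these 2 chromosomes were 0.95 or higher, and the cause was not tested.

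**Figure D5:**
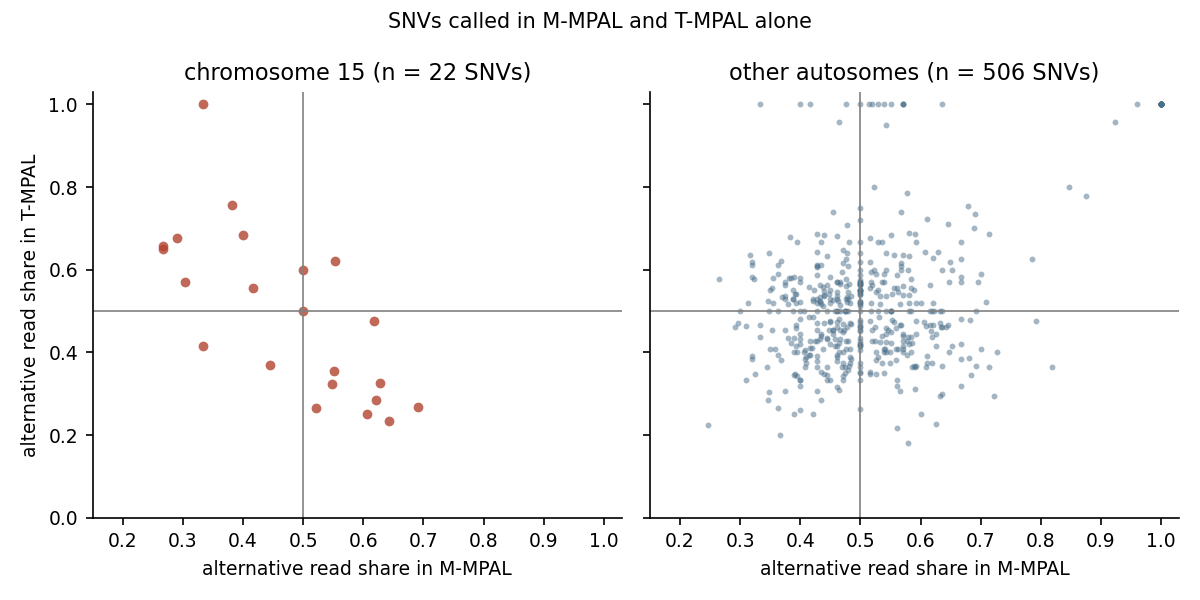
Alternative read share in M-MPAL (horizontal) and T-MPAL (vertical) at each SNV that these libraries alone held, on chromosome 15 (left, 22 SNVs) and the other autosomes (right, 506 SNVs). Grey lines mark 0.5, and 17 of the 22 chromosome 15 points lie in the upper left or lower right field.

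Outside chromosome 15 the copy number calls were small. Of all 288 gain calls of M-MPAL, 215 (74.7%) were overlapped less than 50% by a control gain, and in the other direction 147 of 203 control gains (72.4%) were. The 131 gains on the other 18 chromosomes summed to 1.79 Mb, and 69 of them overlapped a control gain by at least 50%. Among these 131, 49 were found in all 5 other complete tables and 24 in none. The AUL table was not used.

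The gains found in none of these tables included a few named genes. A gain to 3 copies of 96 kb on chromosome 7 (141179001 to 141275000) covered Hras, a RAS family oncogene, and Irf7, an interferon regulator, together with Phrf1, Rassf7, Lrrc56, Lmntd2 and Cdhr5. Only 1 variant inside it was called in both libraries, with 5 reads in M-MPAL and 8 in the control, and the adjoining private gain of 2 kb had 1 such variant, with 29 and 45 reads. Both ratios, 0.625 and 0.644, lay below that over the genome, 0.977, although the calls stood at 3 copies. A gain of 54 kb on chromosome 9 (50578001 to 50632000) covered Sdhd, a subunit of succinate dehydrogenase, and Il18, an inflammatory cytokine gene. At 3 variants inside it M-MPAL had 121 reads and the control 135, a ratio of 0.896, again below that over the genome. A gain of 31 kb on chromosome 2 (143059001 to 143090000) covered Snrpb2, a splicing factor gene, and Otor, with 18 and 15 reads at 1 variant (ratio 1.2). Apart from Hras, these genes were chosen after their values were seen.

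All 19 losses of M-MPAL stood at 1 copy and none overlapped a loss in another complete table. They summed to 0.405 Mb, with a median of 10 kb and a longest call of 70 kb on chromosome 16 that held no protein-coding gene. The control also had 19 losses, which summed to 0.296 Mb, and none of these was found elsewhere. In both directions 100% of the losses lacked a counterpart. Protein-coding genes touched by M-MPAL losses, chosen after their values were seen, were Cntnap5a, Dpp10, Malrd1, Naaladl2, Bnc2, Syne1, Fam81b and Daam2, and the homeobox gene Alx1 with a predicted neighbour. No list gene was in a loss. Variants called in both libraries lay in only 3 of the losses, 4 sites in all, with 32 reads in M-MPAL and 52 in the control. The longest loss was the exception among these 3, with 10 reads in M-MPAL and 5 in the control at 1 site.

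DNA calls hold no marker expression, so lineage could be looked at only in the antigen receptor loci. M-MPAL had 0 copy number calls in Igh, Igk, Igl, Tra/Trd, Trb and Trg, and so had the control. T-MPAL had 1, the deletion of chr14:53962001-54123000 in Tra/Trd to 0 copies, where M-MPAL had 1 variant call with 9 reads and T-MPAL had none. Member SNVs in these loci numbered 3, all in Igh, and member INDELs numbered 5, against 4 and 4 in the control set. The marker genes Itgam, Itgb2, Ptprc, Cd79a, Cd79b, Cd3e, Cd3d, Cd3g, Cd4 and Cd8a had no member SNV, member INDEL or copy number call. Other marker genes did: Cd8b1 held the intronic SNV given above, and the Gr1 genes Ly6g, Ly6c1 and Ly6c2 lay in the gain of chromosome 15.

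Of the 186 member INDELs outside repeats, 54 were in no other library and 32 in T-MPAL alone. Some of the longest of these, taken from those sets only, are shown because a deletion of many bases at 1 position is harder to mistake for a repeat length error. Npas3, a transcription factor gene of the nervous system, lost 15 bases of an intron (chromosome 12, position 53431477) on 10 of 17 reads, as did T-MPAL. This deletion was listed in dbSNP, while those in Ptprk and Pcdh9 were not. Ptprk, a receptor phosphatase gene, lost 8 bases (chromosome 10, position 28474188) on 10 of 19 reads, and Pcdh9, a protocadherin gene, lost 7 (chromosome 14, position 93080623) on 22 of 22. These genes were chosen after their values were seen. The deleted bases, in the deposited orientation, follow.
Npas3: TTCTCTTCCTGACTG
Ptprk: TAAGACAC
Pcdh9: ACTAATT
All 3 were from the set shared with T-MPAL alone, and a 34-base deletion between genes on chromosome 4 (position 149810573) was on 22 of 22 reads in M-MPAL alone. Over all member INDELs in no other library, insertions made up 55.4% (53.4 to 57.4), against 37.0% (34.6 to 39.5) in the control. At 630 member INDELs (10.4%) the position had several alternative alleles, and the deposited alternative reads then count them together.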

How the data were processed

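SNV, INDEL and copy number calls of 7 libraries were used, and the tables of 6 integration-site samples were not analysed here. The submitters' processing notes name BWA and mm10. Calls came from samtools and FREEC with ANNOVAR annotation, per the file headers and names, and no label or header names caller versions, settings or filters. The deposited quality score is Phred-scaled, and the deposited counts of reads and alternative reads per call were used as they stood. In the deposited copy number tables each call has a whole number of copies, in steps of 1 kb. The AUL copy number table ends in the middle of a line and was not used.

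Identical calls share position, reference and alternative allele. Protein changes are numbered on the listed transcript that gives the highest position. A copy number call was shared if a call of the same direction covered at least 50% of it. Relative depth is the median of M-MPAL over control depth at sites with at least 10 reads in each, divided by that of all autosomes. Gene spans and promoters came from RefSeq, GRCm38.p6.

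The members, gene lists and tests were chosen with earlier results of these data known. Named genes were Mycn, list genes with a protein-altering member or in a copy number call under 5 Mb, the markers, list genes of a chromosome gained or lost, and the 20, 10 and 5 best supported genes of the SNV, INDEL and control sets. Olfr, Vmn, Zfp, Gm and Rik genes were left out of this choice. Work was done in Python 3.11.15 with scipy 1.17.1, pandas 2.3.3, numpy 2.4.6 and matplotlib 3.10.9. The code of the rule was run on simulated data: 500 of 500 planted SNVs among 8000 sites were recovered, with 0 wrong. The simulation held no missed control calls and no calls below the depth or quality limits. It therefore shows only that the code applies the rule, not how often the rule errs on real data. Alternatives changed the depth, quality and read share limits, and the handling of repeats, segmental duplications, dbSNP, neighbours, other libraries and copy number calls.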

Additional observations from a re-analysis of the deposited data

Results flagged for a closer look

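The X chromosome lies outside the chromosomes compared above, and its M-MPAL copy number calls stood apart from those of the control. M-MPAL had 149 Mb of it called at loss in 18 calls, against 0.685 Mb in the control and 0 Mb in T-MPAL. At 216 INDELs of the X chromosome called in both libraries, the M-MPAL depth relative to the autosomes was 0.752 (0.696 to 0.803) of that of the control, and in T-MPAL it was 1.00 at 576 sites. These sites needed at least 10 reads in each library, so X sites with fewer M-MPAL reads did not enter the ratio. How far this raised the 0.752 was not tested. Unfiltered SNV calls on the Y chromosome numbered 67 in M-MPAL, 56 in the control and 42 in T-MPAL. The labels do not state the animals' sex, and it was not inferred from these calls.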

How the results depend on the processing

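No paired analysis was possible because each group has 1 library. Of 82 alternative values, 46 stayed close to the reported one (counts and lengths within 1.5 times, other values within the reported interval). In the order quality of at least 20, quality of at least 200, repeats left out and no call in any other library, the member SNVs numbered 4376, 881, 1244 and 1235. The member INDELs numbered 40823, 1351, 186 and 2352 in that order, and 1894 with 20 reads. The median read share was 0.406, 0.581, 0.469 and 0.44, and 0.462 with 20 reads. The protein-altering members numbered 37 and 8 with these quality limits, 34 with segmental duplications kept and 9 with no call in any other library. The C>T share was 39.5% with 5 reads, 45.3% with 20, 39.8% with either quality limit, 39.6% with segmental duplications, 45.4% without dbSNP variants and 45.3% with no call in any other library. T-MPAL held 40.4% and 59.4% of the member SNVs with these quality limits, 41.7% outside repeats, 37.4% outside dbSNP and 43.1% without neighbours within 100 bases. On chromosome 15 the median share of all 146 members was 0.414, and it was 0.462 at a share limit of 0.3 and 0.341 with no call in any other library. The chromosome 15 depth ratio was 1.91 outside repeats, 1.37 at INDELs and 1.42 outside control gains, the last setting chosen after seeing the data. Losses of at least 50 kb summed to 0.131 Mb of 0.405 Mb. The causes were not tested, apart from the smaller number of sites that each stricter limit leaves. The length at gain moved little, between 99.5 and 102 Mb. At 16 to 29 reads a share of single sites is known only within wide intervals, and a missing control call does not show that the control lacks the variant.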
